A study of Mus musculus with 10 samples.

Results

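Of the 26230 open-chromatin windows that the authors called in untreated MC3T3-E1 cells, 2086 (7.95%) were also called after BMP4 but had no called window nearby in either condition with TNFa. They were chosen from the 4 deposited window lists. Each had a window of the BMP4 list whose start lay within 62 bp, and no window of the TNFa list or of the TNFa plus BMP4 list whose start lay within 500 bp. They are called members here, and they made up 10.3% of the 20307 untreated windows that had a BMP4 partner. Another 14722 of those shared windows (72.5%) had a partner in all 4 lists and serve as the reference, and the remaining 3499 had a window with TNFa within 500 bp but no partner in all 4 lists. The 4 lists hold 97788 windows in all. Since the presence of a call chose the members, their signal below is a description and carries no test against TNFa, and a window missing from a list was not called there, which is not the same as closed.

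MC3T3-E1 is a mouse cell line labelled as osteoblasts, profiled by ATAC-seq, which maps accessible DNA through the places where a transposase inserts adapters, counted as tags. The study asked how TNFa and BMP4, alone or together, change chromatin accessibility in these cells. All cells were kept in medium with 2.5% serum, and the labels give no engineered genotype. The groups were untreated cells, cells given TNFa at 10 ng/ml, cells given BMP4 at 10 ng/ml for 3 h, and cells given both, with 2 libraries each. How long TNFa was present is uncertain, because the protocol has 30 min of TNFa before BMP4 and the labels of the TNFa samples state 3 h. The titles of the 2 libraries with TNFa alone also carry p65, which the labels do not explain. A pair of sonicated-DNA libraries was the authors' background. No batch is recorded among the sample labels used here. Whether replicates were separate cultures is not stated, and the spread behind each p-value may be technical.

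TNFa is an inflammatory cytokine that acts through NF-kB and AP-1 factors, whereas BMP4 acts through receptor kinases that phosphorylate SMAD proteins and drives bone formation. Accessible windows at start sites tend to be open in many cell types, and distal windows in introns and between genes often hold enhancers, which vary more between cell types and with signalling. The weaker a window, the more its call depends on how deeply a library was sequenced.

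Libraries stood apart in depth and in how well replicates matched, and both bear on the members. Without TNFa the libraries held 26 to 30.1 M tags, and with TNFa, alone or combined, 16.5 to 21.8 M. Depth and TNFa treatment therefore cannot be told apart. Across the windows called in all 4 lists the log2 levels of replicates correlated at 0.59 in untreated cells, 0.40 with BMP4, 0.66 with TNFa and 0.75 with both. The osteoblast label was checked by called windows. Runx2, the osteoblast master regulator, had 14, 9, 15 and 11 windows in the untreated, TNFa, BMP4 and combined lists, Col1a2 had 14 in each, and Alpl had none in any. Sp7 had 2 to 4 windows a list, Col1a1 2 to 4, Ibsp 1 and Bglap 1 or, with TNFa alone, 0. The whole osteoblast list had 157, 130, 161 and 138 windows. Marker genes of other cell types had called windows too, 40 to 46 a list at haematopoietic genes, 30 to 40 at muscle and endothelial genes and 15 to 22 at adipocyte genes.

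The DNA of members could be read where a member lay wholly inside a RefSeq promoter stretch (GRCm38.p6, from 250 bases before to 50 after a start site), which held for 114 of the 2086. The windows below are shown because they include the strongest promoter members with a sequence at hand and promoters of AP-1, cartilage and cell death genes. Each is the whole window on the gene's strand, 5′ to 3′, with the SP/KLF box GGGCGG in capitals where that strand or its complement holds it. Ube3c, a ubiquitin ligase, is at chr5:29569116-29569240 on the plus strand. Zfp36, whose product speeds the decay of Tnf and other AU-rich messages, is at chr7:28379294-28379418 on the minus strand. Ube2g1, a ubiquitin-conjugating enzyme, is at chr11:72607149-72607273 on the plus strand. Junb, an AP-1 subunit, is at chr8:84978755-84978879 on the minus strand. Hapln1, which links aggrecan to hyaluronan in cartilage, is at chr13:89540512-89540636 on the plus strand. Bmf, a BH3-only protein that promotes apoptosis, is at chr2:118549674-118549798 on the minus strand.
Ube3c: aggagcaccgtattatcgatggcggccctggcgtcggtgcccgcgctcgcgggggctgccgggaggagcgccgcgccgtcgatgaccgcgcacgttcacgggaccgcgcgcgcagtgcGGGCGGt
Zfp36: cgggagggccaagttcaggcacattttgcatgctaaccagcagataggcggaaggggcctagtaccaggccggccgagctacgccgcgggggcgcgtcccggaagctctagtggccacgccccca
Ube2g1: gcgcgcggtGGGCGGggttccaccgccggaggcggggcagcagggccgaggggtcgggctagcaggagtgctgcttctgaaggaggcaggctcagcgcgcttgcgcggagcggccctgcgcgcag
Junb: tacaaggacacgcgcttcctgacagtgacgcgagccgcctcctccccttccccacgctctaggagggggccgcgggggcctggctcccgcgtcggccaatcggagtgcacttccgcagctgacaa
Hapln1: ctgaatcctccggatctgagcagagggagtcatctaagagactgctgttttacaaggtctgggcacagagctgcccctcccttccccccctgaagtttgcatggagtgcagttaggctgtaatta
Bmf: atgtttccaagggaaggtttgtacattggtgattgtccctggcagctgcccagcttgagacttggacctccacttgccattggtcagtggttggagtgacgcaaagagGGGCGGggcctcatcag

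Most of these promoter members were rich in G and C. The Ube3c window had 76% GC and 25 CG pairs, Ube2g1 76.8% and 16, Junb 68.8% and 13, and Zfp36 67.2% and 11. Bmf with 55.2% GC and 2 CG pairs and Hapln1 with 52.8% and 1 were poorer. Over the 114 promoter members with sequence the median GC content was 64%, beside 64.8% over the 3649 shared windows that also lay in a RefSeq promoter stretch, and the median number of CG pairs was 10 beside 11. GGGCGG was found on either strand in 54.4% of the 114, beside 56.9% of the 3649. The E-box CANNTG was in 29.8% beside 27.5%, and the TEAD motif GGAATG in 6.14% beside 4.99%. The AP-1 motif TGANTCA was in 6 of the 114 (5.26%) beside 2.52% of the 3649. The NF-kB site, in its longer form or as GGAANTTCC, was in 1 of the 114 (0.877%) beside 1.45%. The RUNX motif TGTGGTT, the SMAD palindrome GTCTAGAC and the CTCF core motif were in 0 of the 114, beside 1.12%, 0.0548% and 0.493%. Both strands were searched, and motifs may overlap one another. By base composition the promoter members lay close to shared promoter windows in general. The sequences of members outside RefSeq promoter stretches were not analysed here.

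Members lay mostly away from promoters. HOMER's annotation in the deposited lists put 242 members (11.6%, 95% Wilson interval 10.3 to 13) at promoters, beside 34.6% (33.9 to 35.2) of all shared windows and 40.6% (39.8 to 41.4) of windows in all 4 lists. Introns held 907 members (43.5%, beside 30.5% of shared windows), and 876 (42%, beside 30.7%) were intergenic. Transcript ends held 20 members, 3′ untranslated regions 15, coding exons 13, 5′ untranslated regions 7 and non-coding transcripts 6. Of the intronic members 35.1% were in a first intron, beside 42.1% of intronic shared windows. The median distance from a member to its nearest start site was 22262 bp (quartiles 6162 to 58523), beside 6214.5 bp for shared windows and 2279.5 bp for those in all 4 lists. Outside promoters the gap was smaller, with 27588 bp beside 21942 and 20158 bp. A distance of over 100 kb was found for 284 members (13.6%). Intervals cover counting error only. Members were also weaker, with a median of 8.6 tags per 10 M total tags over the untreated and BMP4 libraries. Shared windows had 18.3 and those in all 4 lists 21.8. The part of level in these shares and distances was not tested.

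**Figure D1:**
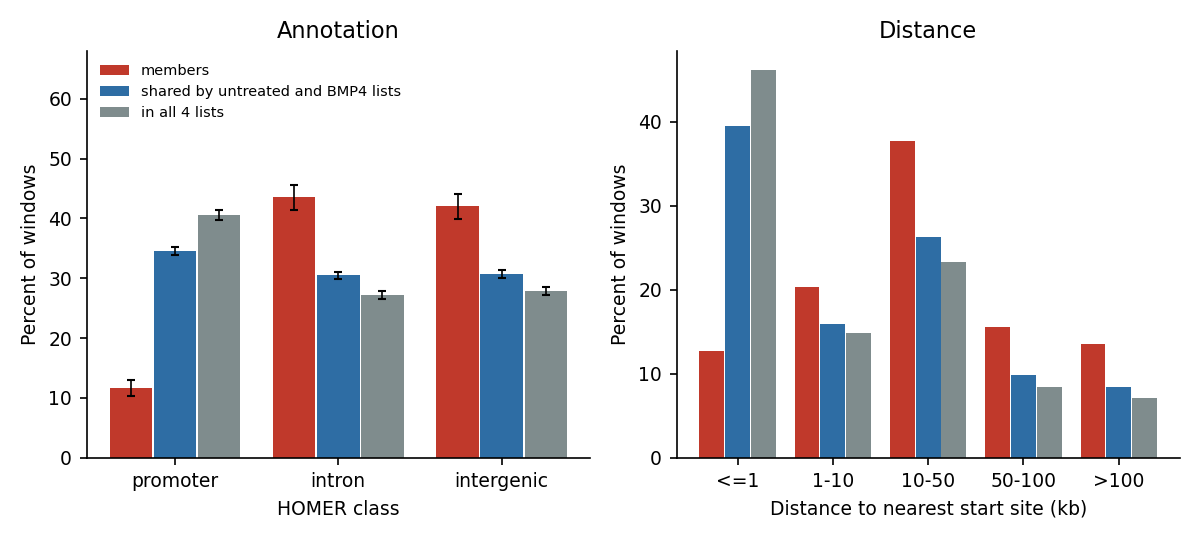
Left, percent of windows in the 3 main HOMER classes with 95% Wilson intervals; right, percent of windows by distance to the nearest start site in kb. Promoters held 11.6% of members (red) and 40.6% of windows in all 4 lists (grey), and 37.7% of members lay 10 to 50 kb from a start site.

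Repeats and non-coding genes were more frequent at members than at the reference windows. A repeat was named in the annotation of 269 members (12.9%), beside 7.8% of shared windows and 6.46% of windows in all 4 lists. LTR elements, the remnants of retroviruses, accounted for 117 members (5.61%), beside 2.89% of shared windows, while SINEs held 3.21% of members and LINEs 2.64%. The nearest gene of 17.3% of members was a non-coding RNA gene, beside 12.4% of shared windows. Annotation classes and distances also differed between the sets, and their part in these shares was not tested.

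The signal at members was low and lay mainly in the second replicates. Levels are given as tags per 10 M total tags of a library. The median level of a member was 3.99 in untreated replicate 1 and 11 in untreated replicate 2, then 3.07 in BMP4 replicate 1 and 15 in BMP4 replicate 2. The background libraries gave 0.808 and 0.895. In tags these medians were 12, 32, 8 and 42, and 4 and 5 in the background. Windows in all 4 lists had medians of 17.3 and 20.6 in untreated cells and 15 and 25.1 with BMP4. The median member therefore stood at 0.226 of the median reference window in the first replicates and at 0.570 in the second replicates. Both first replicates were low at members and both second replicates high, and the gap was smaller at the windows in all 4 lists.

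**Figure D2:**
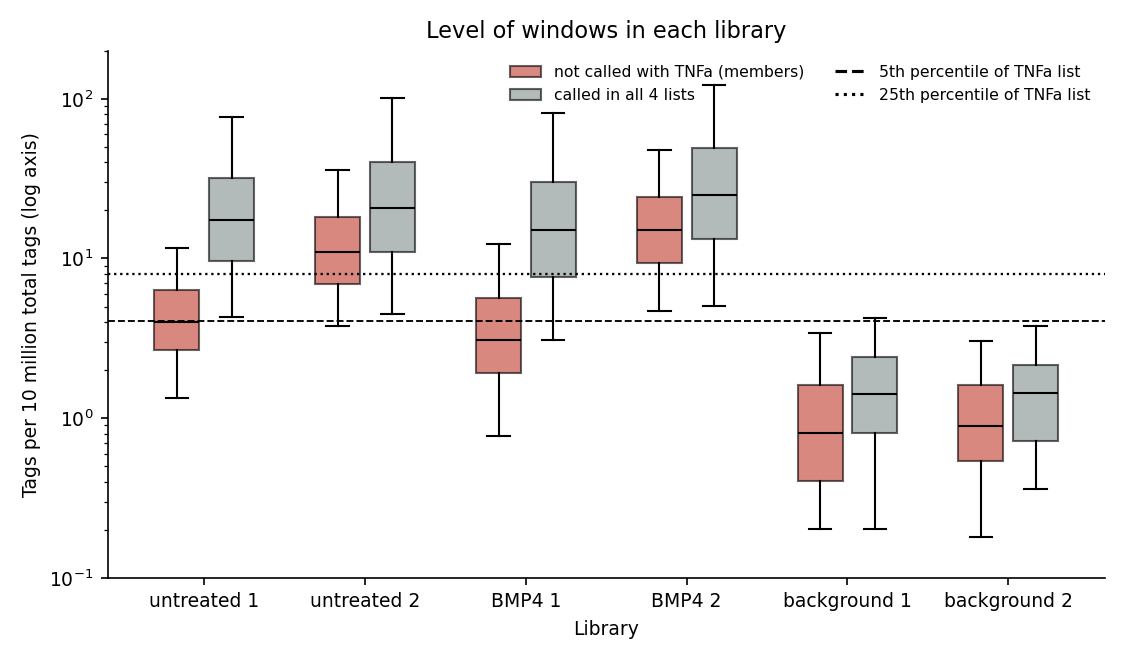
Levels in tags per 10 M total tags (log axis) in the untreated, BMP4 and background libraries, for members (red) and windows called in all 4 lists (grey); boxes are medians with quartiles and whiskers run from the 5th to the 95th percentile. Medians of members are 3.99 and 3.07 in the first replicates, at or under the dashed 5th percentile of the TNFa list (4.05), and 11 and 15 in the second, above its dotted 25th percentile (8.05). Both percentiles are for the mean level of the TNFa libraries.

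The imbalance was present in most members. Of the 2086, 1908 (91.5%) were higher in replicate 2 than in replicate 1 in both untreated and BMP4 cells, beside 53% of windows in all 4 lists, and 64 (3.07%) were higher in replicate 1 in both, beside 25.9%. The median ratio of replicate 2 to replicate 1 was 2.75 in untreated and 4.9 in BMP4 cells, beside 1.19 and 1.67. A ratio of at least 2 was found in 69.7% of members in untreated cells and in 85.1% with BMP4, beside 26.6% and 45%. Untreated and BMP4 replicate 2 together hold most of the tags: members took 0.298% and 0.4% of all tags of these libraries, 0.106% and 0.0955% in the replicate 1 libraries, and 0.0255% and 0.0245% in the background.

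**Figure D3:**
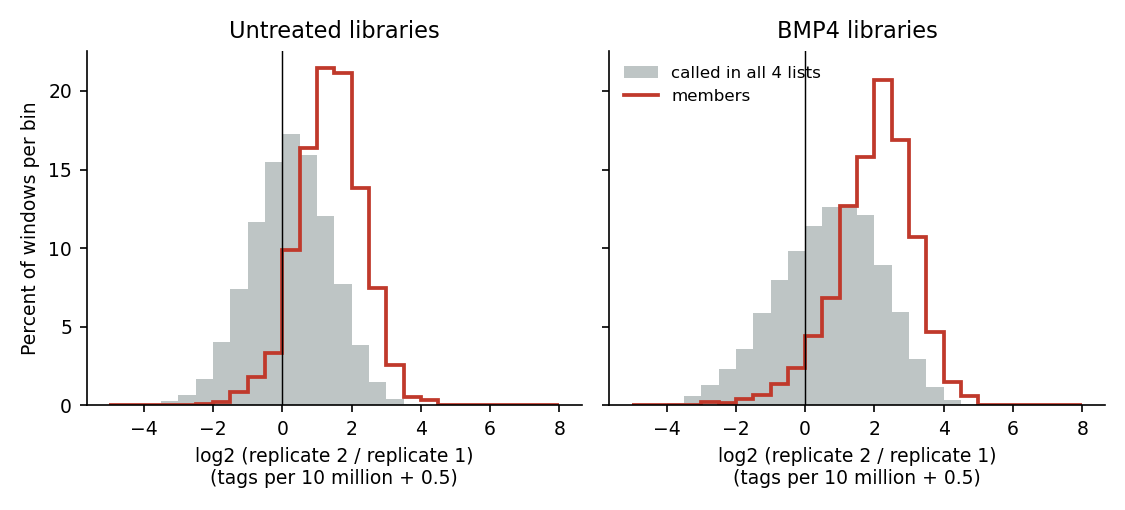
Percent of windows by log2 ratio of replicate 2 to replicate 1 in untreated (left) and BMP4 (right) libraries, with 0.5 added to tags per 10 M; the vertical line marks equal levels. Members (red line) lie to the right of the windows called in all 4 lists (grey) in both panels.

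A window's level and its replicate balance went with the chance that it was a member. When the 20307 shared windows were ranked by mean level over the 4 untreated and BMP4 libraries and cut into 5 bins of equal size, members were 27.6% of the lowest bin, 13% of the next, then 7.26%, 3.08% and 0.419% of the highest. By the ratio of replicate 2 to replicate 1 the shares ran from 1.45% in the lowest bin to 24.9% in the highest. Where both applied, with level in the lowest and ratio in the highest bin, 61.5% of windows were members, and with level and ratio both in the lowest bin 6.16% were. These shares are a description, because calls chose the members. The level is that of the untreated and BMP4 libraries, and members have no level with TNFa. Why they were not called there was not tested.

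**Figure D4:**
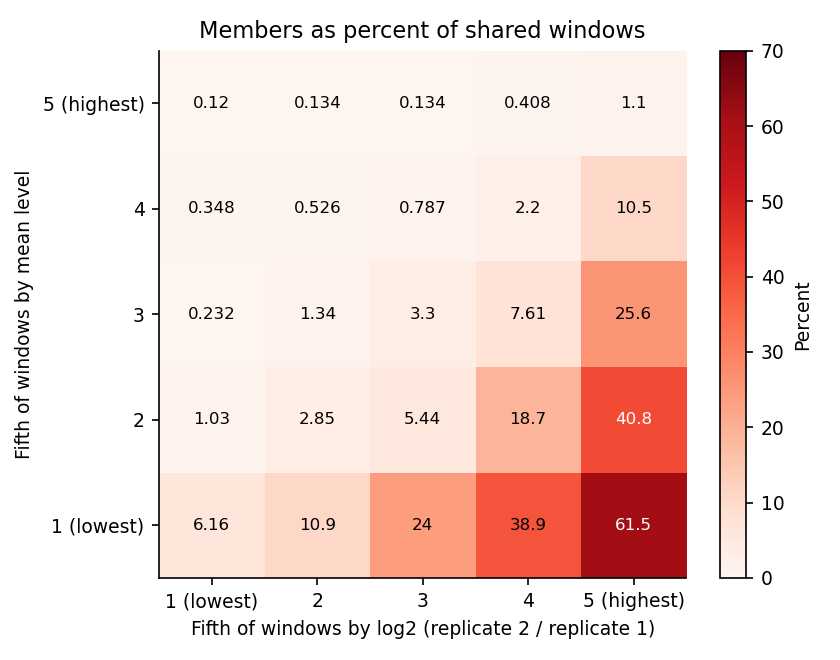
Members as percent of the shared windows in each combination of 5 equal bins of mean level (vertical) and 5 of the ratio of replicate 2 to replicate 1 (horizontal). The share is 61.5% at the lower right, where the level is lowest and the ratio highest, and under 1.2% along the whole top row.

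The levels at which windows were called with TNFa help to read the members. In the TNFa list's own libraries the 5th percentile of the mean level was 4.05 and the 25th was 8.05, and the 5th percentile held 15 tags over both libraries, beside 22 in the untreated list. Both first-replicate libraries reached the TNFa list's 5th percentile in 666 members (31.9%), beside 89.6% of windows in all 4 lists. In the second replicates 1941 members (93%) reached it, beside 95.2%. These limits are for the mean of 2 libraries, whereas single libraries are held to them here. By the mean of the 4 untreated and BMP4 libraries, the median member stood at 8.6 (quartiles 5.77 to 13.4), above the TNFa list's 25th percentile. Windows in all 4 lists stood at 21.8 (12.6 to 38.2). At the depth of the TNFa libraries the median member would give 13.8 tags at its first-replicate level and 47.8 at its second-replicate level. A total of 151 members (7.24%) reached the 25th percentile in all 4 untreated and BMP4 libraries, beside 61.4% of windows in all 4 lists. Of these, 121 were more than 1000 bp from any window of a list with TNFa, with median levels of 11.3 and 24.4 in untreated and 11.1 and 31.2 in BMP4 libraries. Even in this better-covered set the second replicates were higher at the median. Whether the missing calls came from less open chromatin, depth or the uneven replicates was not tested.

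The authors' own statistics were also weaker at members than at the windows in all 4 lists. In the authors' deposited tables the median log2 fold over background of members was 3.08 in the untreated and 3.34 in the BMP4 list, beside 3.91 and 4.03 for windows in all 4 lists. The adjusted p over background in the deposited tables was above 0.01 for 50.9% of members in the untreated list and for 66.3% in the BMP4 list, beside 9.63% and 19%.

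The opposite set was smaller and its replicates were less uneven, though in other libraries, those with TNFa. A total of 846 windows of the TNFa list had a partner in the combined list and no window of the untreated or BMP4 list within 500 bp. Their median levels were 7.89 and 7.6 in the TNFa libraries and 6.89 and 9.55 in the combined libraries. Replicate 2 was higher in both conditions in 386 of them (45.6%). Taking each condition alone, replicate 2 was higher in 61.7% of all TNFa windows and 66.7% of all combined windows. Promoters made up 18.1% of the set, beside 35% of the TNFa list. The difference between the sets was not tested, because calls chose both.

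The rule placed every member more than 500 bp from any window called with TNFa, so these distances are a description. They were not compared with those of other windows. The median distance to the nearest such window was 14096 bp, and 141 members (6.76%) lay at 500 to 1000 bp. Those closest members were stronger, since 21.3% of them reached the TNFa list's 25th percentile in all 4 libraries, whereas 1.12% of the 179 members beyond 100 kb did. Just inside the 500-bp limit were 1700061I17Rik at 506 bp and S100b at 511 bp. Just outside were a Dock9 intron window at 500 bp and windows at Mical2 and Clic4 at 499 bp, which are therefore not members. S100b had a window with TNFa almost within the limit, and its member was one of the strongest.

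The strongest members are grouped here after their values were seen, first 5 in which most tags came from the second replicates. A promoter window at Cbwd1 (chr19:24961676-24961800, -122 bp from the start site) had levels of 5.32 and 120 in untreated and 8.06 and 165 in BMP4 cells, with 4.04 and 3.22 in the background. Both first replicates were thus close to the background, and both second replicates far above it. A Galnt2 intron window, in a gene for O-glycosylation, followed the same pattern with 7.65 and 79 in untreated and 4.22 and 129 in BMP4 cells, against 4.64 and 3.94 in the background. The Ube3c promoter window printed above had 9.32 and 83.1, then 3.07 and 84.9, and BMP4 replicate 1 was there hardly above the background of 2.83 and 2.86. The Ube2g1 promoter had 10.3 and 57.4, then 10.4 and 74.5, with a window of the combined list at 552 bp, just past the limit. A Rhbdf1 intron window had 13 and 60.1, then 11.5 and 131. Rhbdf1 and Ube2g1 lay above the TNFa list's 25th percentile (8.05) in both first replicates, unlike the other members of this group.

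Other strong members were high in all 4 libraries and had a window with TNFa just past the limit. An intergenic window near Eif2b2, which encodes a translation initiation factor subunit, had 58.9 and 32.3 in untreated and 99.4 and 44.4 in BMP4 cells, with the nearest window of a list with TNFa at 672 bp. The S100b window had 33.3 and 43.3, then 61 and 62.3. A window near Sowaha had 28.3 and 42.9, then 29.6 and 84.5, with a window at 607 bp. At the promoter of Sqstm1, the autophagy receptor p62, levels were 49.9 and 23.7 in untreated and 43 and 26.9 in BMP4 cells, and the nearest window was at 537 bp. At the Mlf2 promoter they were 16.3 and 19.6, then 82.2 and 25.1, with a window at 548 bp. Sqstm1 and Eif2b2 were higher in the first replicates, against the trend of the members.

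Several strong promoter members had signal in all 4 libraries and no window with TNFa so close. The Zfp36 promoter window had 21.6 and 60.4 in untreated and 17.7 and 69.8 in BMP4 cells over a background of 2.22 and 2.86, with the nearest window with TNFa at 1823 bp. The Mafa promoter had 13 and 47.7, then 18 and 70.9, with none within 44255 bp, and the Hebp2 promoter had 17.3 and 56.7, then 13.1 and 58, with none within 39523 bp. In all 3 the second replicates exceeded the first in both conditions.

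**Figure D5:**
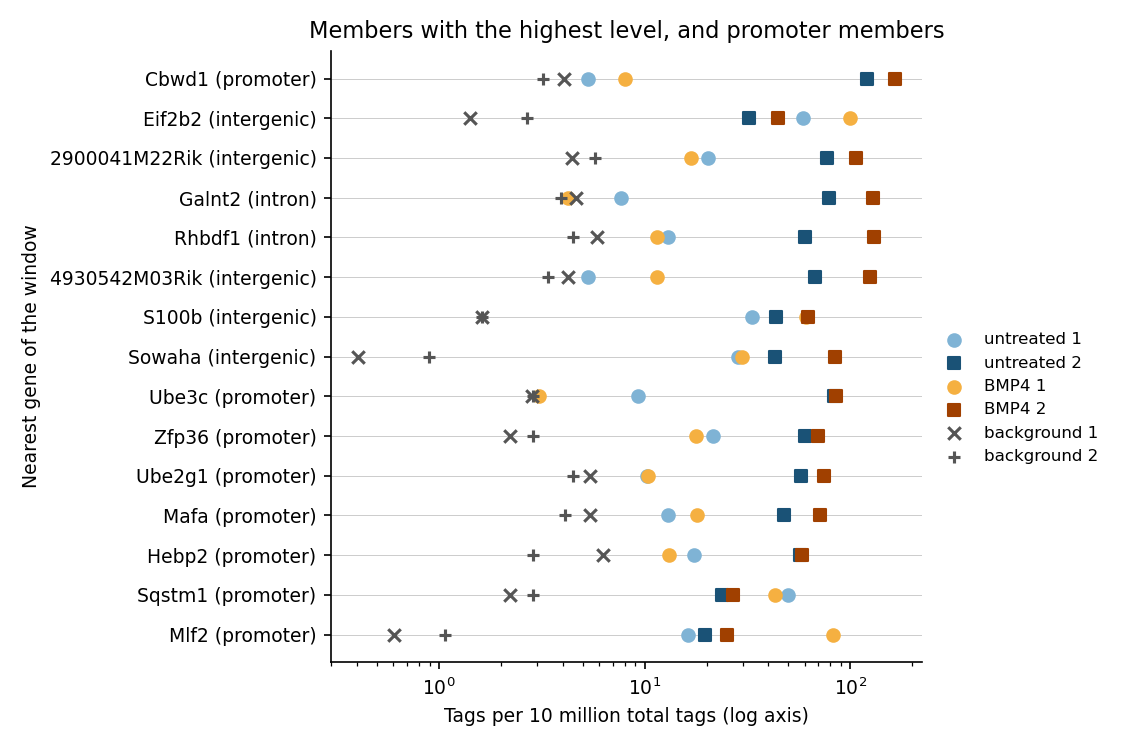
Levels in tags per 10 M total tags (log axis) of the members with the highest mean level and of the strongest promoter members, with first replicates as circles, second replicates as squares and background libraries as crosses. At Cbwd1 and Galnt2 the first replicates sit near the background, whereas at Eif2b2 and Sqstm1 the first replicates lie to the right of the second.

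The members with the highest deposited fold over background were weak windows over an empty background. A window near Pja1 had 3.66 and 6.87 in untreated and 1.92 and 9.67 in BMP4 cells, and Supt20 had 1.66 and 6.87, then 4.22 and 12.2. Dock9, in an intron other than the window named above, had 1.66 and 5.15, then 2.69 and 12.9, and Pdlim5 had 0.998 and 4.46, then 1.15 and 18.3. All 4 held 0 tags in both background libraries. Sntb1 was stronger, with 4.99 and 23.4, then 3.84 and 40.5, and 1 background tag. Their log2 folds in the authors' deposited tables, 6.28 to 8.12, therefore depend on a background at or near 0.

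Members were spread over 1759 genes by nearest-gene name, 1499 of them with a single member, and 7 members had no gene name. Zfp608 had the most, with 7 members among 26 shared windows, of which 16 were in all 4 lists. Runx1, a haematopoietic and skeletal transcription factor, had 6 of 16, with 10 in all 4 lists. The non-coding genes 1700065J11Rik (4 of 6), 4930581F22Rik (4 of 10) and A230028O05Rik (4 of 12) and the nucleotide enzyme gene Dut (4 of 8) came next. Nearest-gene names do not show which gene a distal window regulates. In 83 places 2 or more members lay within 10 kb of each other, with 171 members in all. The longest run was of 4 windows near 1700065J11Rik, from 35353668 to 35379177 on chromosome 6, with levels from 1.66 to 46.9. A run of 3 lay between Gpr37l1 and Elf3 on chromosome 1, from 135199138 to 135217875.

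Osteoblast genes held 15 members among 135 shared windows (11.1%), beside 10.3% of all shared windows, so their share lay near that of windows in general. A run of 3 intergenic members lay beyond Runx2 at 267761, 267165 and 263313 bp from its start site, within 4573 bp of chromosome 17. Their levels were 7.32 and 16.1 in untreated and 8.83 and 28.3 in BMP4 cells in the first, 3.99 and 8.24, then 11.5 and 7.88 in the next, and 3.33 and 10.6, then 3.46 and 17.5 in the last. The middle window was higher in BMP4 replicate 1 than in replicate 2, unlike its neighbours. Members near Twist2, a repressor of osteoblast maturation, had 6.32 and 19.2, then 6.14 and 32.6, and those near Phospho1, a mineralisation phosphatase, had 6.32 and 16.8, then 7.29 and 30.4. Members of the list also lay at Zfp521 (3), Cdh2 (2), Ank, Cdh11, Col5a1, Col5a2 and Tnfrsf11b. Of the 15, 13 were higher in replicate 2 in both conditions and 6 reached the TNFa list's 5th percentile in both first replicates.

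Cartilage genes had the highest share among the 14 gene lists, with 10 members among 31 shared windows (32.3%) at 7 genes. Of their shared windows 12 (38.7%) were in all 4 lists, beside 72.5% of all shared windows. Near Comp, a cartilage matrix protein, levels were 11 and 39.5 in untreated and 13.8 and 72.7 in BMP4 cells. The Hapln1 promoter printed above had 8.98 and 40.5, then 3.46 and 51.9, so BMP4 replicate 1 was the lowest there. A window near Cytl1, a secreted factor of chondrocytes, had 9.98 and 27.1, then 4.22 and 50.9. The following windows were named after their values were seen. A window at -8815 bp from the start site of Sox9, the chondrocyte master regulator, had 11.3 and 11 in untreated and 6.14 and 20.4 in BMP4 cells. The stronger intronic member of Sox5, a partner of Sox9, had 7.65 and 17.5, then 11.5 and 27.2, and that of Sox6 had 2.00 and 28.8, then 3.07 and 32.2. The Col11a2 intron had 16.3 and 18.9, then 12.7 and 20.8, and was nearly even between replicates in untreated cells but not with BMP4. Of the 10, 9 were higher in replicate 2 in both conditions, and 6 reached the 5th percentile in both first replicates. With 31 windows and no test, nothing particular to cartilage genes is drawn from this share.

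Genes that NF-kB and SMAD factors act on are given here by counts, with no test. NF-kB targets held 4 members among 73 shared windows (5.48%), beside 10.3% of all shared windows, and 82.2% of their shared windows were in all 4 lists. Vcam1, an adhesion molecule, had 2.66 and 11 in untreated and 2.69 and 8.95 in BMP4 cells. Traf1, a TNF receptor adaptor, had 1.66 and 6.18, then 2.69 and 10.7. Cyld, a deubiquitinase that limits NF-kB, had 4.99 and 6.87, then 4.22 and 8.24. The member near Il6, a cytokine gene named here after its values were seen, had 1.33 and 3.78, then 1.15 and 6.45. All 4 were weak and higher in replicate 2. BMP and SMAD targets held 9 of 106 (8.49%), near the share of all shared windows, among them windows at Dlx2 (2), Acvr1, Gata3, Id4, Klf10, Smurf2 and Zfp423. In an intron of Acvr1, a BMP type I receptor, levels were 4.66 and 21.6, then 6.14 and 39.

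AP-1 and immediate early genes held 7 members among 108 (6.48%), at Fos, Junb, Klf2, Klf4, Klf6, Mafg and Nr4a2. The Junb promoter had 19.3 and 28.2 in untreated and 23 and 53.4 in BMP4 cells, with a window of a list with TNFa at 933 bp. An intergenic window near Fos had 10.6 and 21.3, then 4.99 and 35.5, and the Mafg promoter had 8.32 and 22.7, then 4.22 and 30.8. All 7 were higher in replicate 2 in both conditions.

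Wnt pathway genes held 11 members among 81 (13.6%), at Wnt11 (2), Wnt4, Axin2, Dkk3, Lef1, Lrp6, Rnf43, Tcf7l1, Tcf7l2 and Znrf3. The stronger Wnt11 window had 14.3 and 29.2 in untreated and 5.37 and 34 in BMP4 cells. The Wnt4 intron had 5.99 and 19.2, then 5.76 and 27.2, and Znrf3, a ligase that removes Wnt receptors, had 5.99 and 22, then 5.76 and 16.5. YAP and TEAD pathway genes held 6 of 76 (7.89%) and TGF-beta pathway genes 4 of 59 (6.78%), among them a Tgif1 intron window with 15 and 25.4, then 19.6 and 34.7, and a window with TNFa at 658 bp. Shares in these lists lay on both sides of the 10.3% of all shared windows.

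Genes of cell death held 2 members on each of the inhibitor and effector lists, counts too small to set apart from the 10.3% of all shared windows. Inhibitors held 2 of 33 (6.06%), both in introns of Bcl2l1, which encodes the survival protein BCL-XL. Their levels were 4.33 and 25.8 in untreated and 1.92 and 23.6 in BMP4 cells in the first, and 6.99 and 17.2, then 9.21 and 19.3 in the other, which had a window with TNFa at 641 bp. Effectors held 2 of 41 (4.88%), the Cyld window above and the Bmf promoter, with 5.66 and 10.3, then 5.37 and 16.1. Housekeeping genes held 1 of 54 (1.85%), an Actb intron window with 33.3 and 39.8, then 18.8 and 40.1, and a window with TNFa at 651 bp.

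Markers of other cell types held members too, to be read beside the 10.3% of all shared windows and with no test. Haematopoietic markers held 8 of 35 (22.9%), 6 of them at Runx1 and 1 each at Runx3 and Ebf1. The strongest Runx1 member had 4.99 and 22.3 in untreated and 3.46 and 25.1 in BMP4 cells, and its promoter member had 2.00 and 9.62, then 2.69 and 9.67. Adipocyte markers held 4 of 19 (21.1%), at Cebpa, Cebpd, Ebf1 and Ebf2. The Cebpd member had 6.32 and 4.12, then 21.1 and 3.22, and was higher in both first replicates. Muscle and endothelial markers held 3 of 31 (9.68%), at Erg, Mef2c and Vwf. Whether such windows came from other cells in the culture was not tested.

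BMP4 against untreated cells is a comparison that the choice of members did not use, beyond presence in both lists. That presence leaves out windows called in a single list, for members and all tested windows alike. Large differences may therefore be missing here. Counts were recovered from the deposited values and tested with limma in 20187 shared windows, of which 2033 were members, and 53 members had too few tags. At a limma adjusted p under 0.05, 0 members were called, beside 0% of all windows tested. At an unadjusted p under 0.05, 1 member was called (0.0492%) and was higher with BMP4, beside 0.109% of all windows tested, with 0.104% higher and 0.00495% lower. The median log2 difference of members was 0.06 (quartiles -0.23 to 0.33), beside 0.02 over all windows, and 1142 members (56.2%) lay above 0, beside 51.7%. The median depends on single libraries. Without untreated replicate 1 it was -0.43 and without BMP4 replicate 2 it was -0.46, whereas without untreated replicate 2 it was 0.37 and without BMP4 replicate 1 it was 0.60. Between like-numbered libraries the median difference of members was 0.00 for the first replicates and 0.11 for the second. Within a group, replicate 2 exceeded replicate 1 by 0.96 in untreated and 1.19 in BMP4 cells, so replicates differed by far more than groups did.

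No single member passed adjustment, and those with the smallest p-values show the spread. A window at -3514 bp from the start site of Taf13, a TFIID subunit gene, had 2.33 and 6.87 in untreated and 10.7 and 19.3 in BMP4 cells. It differed by 1.67 ± 0.71 (SE, log2 scale), and both BMP4 values lay above both untreated ones. With group as the only term, the limma adjusted p of this window and of the others named here was 0.9999. It was lower with a replicate block, as given below. A window at -47914 bp from the start site of the homeobox gene Dlx2 lay in an intron of another transcript. It had 3.99 and 16.1, then 23.8 and 30.8 (1.66 ± 0.78). Khdrbs3 had 2.00 and 4.81, then 17.3 and 9.31 (1.83 ± 0.84), and Agbl5 had 2.99 and 10.3, then 29.6 and 16.1 (1.84 ± 0.87). On the lower side, 9930111H07Rik had 31.9 and 34, then 6.91 and 30.4 (-1.15 ± 0.74), and Sh3bp2 had 27 and 24.4, then 4.99 and 25.4 (-1.14 ± 0.76). The difference was -1.17 ± 0.78 at Pax8 and -1.08 ± 0.73 at Mocs2. In 9930111H07Rik and Sh3bp2 the BMP4 libraries differed from each other by more than the untreated ones did.

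Other windows at the genes of members could be followed through all 8 libraries. Of 14702 windows of all 4 lists tested with limma, 2880 had a nearest gene that also had a member. Their median log2 difference with TNFa against untreated cells was -0.11, beside -0.01 over all windows, and 42.7% lay above 0, beside 49.1%. With both factors against BMP4 the median was -0.11, beside 0.00, and 43.8% lay above 0, beside 50.1%. These contrasts are the ones that chose the members, so the values are a description. In either contrast limma called 0 of the 14702 windows at an adjusted p under 0.05 (0%), and 150 (1.02%) and 238 (1.62%) at an unadjusted p under 0.05. With TNFa alone 0.415% were higher and 0.605% lower at that p, and with both factors 0.714% and 0.905%. Without untreated replicate 2 and BMP4 replicate 2, the medians at genes of members were -0.07 and -0.072, beside -0.042 and -0.0078 over all windows. Without untreated replicate 2 alone, the TNFa median was -0.075 beside -0.047, so the gap to all windows was narrower than with all libraries. Without BMP4 replicate 2 alone, the median with both factors was -0.074 beside -0.01, and that gap narrowed too.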

How the data were processed

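The submitters' processing notes name HOMER 4.11, Bowtie2 2.5.1, Trimmomatic 0.39, Picard 2.25.1 and deepTools 3.5.1, with build mm10, and a shift of cut sites is not mentioned there. Windows were called by the authors in HOMER after pooling the replicates of a group, against the background pair, at an FDR of 0.05 and a log2 fold of at least 1, per the file headers. The calls themselves are therefore unreplicated. The deposited lists give a log2 fold over background, a p-value and its adjusted value, a peak score and a focus ratio (a fraction), of which the score and the fraction were not used. The per-library columns are headed as tag counts, per the file headers, but what the authors deposited there is on the regularised log2 scale (DESeq2's rlog), scaled in each list separately.

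Tag counts were recovered by inverting the rlog equation, with 3 constants fitted in each list. Of the recovered values, 99.94% (untreated), 99.99% (TNFa), 99.32% (BMP4) and 100% (both) came within 0.1 of a whole number, and 19.57% to 29.97% did with the constants moved by 5%. In windows of identical coordinates, 100% of background counts were equal between lists. Tags were divided by the library totals of the labels, 16.5 to 30.1 M. A window's untreated and BMP4 values come from their own lists, up to 62 bp apart. Because the deposited unit is log2, limma 3.58.1 (R 4.3.3) with a mean-variance trend was used on log2(TMM-scaled count + 2), for windows with 10 or more tags in 2 or more libraries and 15 or more in all, with group as the only term, two-sided, Benjamini-Hochberg over windows, and was tested on simulated data. Motifs were searched in RefSeq promoter sequences (GRCm38.p6).

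The members, the 14 gene lists and the rule for named windows were chosen with earlier results of these data known. Named were the 8 strongest members, the 5 with the highest deposited fold, the 8 strongest promoter members, up to 3 per gene list, the 4 smallest p-values per direction, the genes and runs with most members, and the 3 windows on each side of the 500-bp limit. A few named windows are not reported here. Alternatives varied the matching and exclusion distances, stringency, list length, scaling, pseudocount, filter, weights, replicate block and each replicate.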

Additional observations from a re-analysis of the deposited data

How the results depend on the processing

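The number of members (2086) stayed between 1549 and 2673 when the matching distance was 20 bp or a whole window, when the exclusion distance ran from 62 to 5000 bp, or when the lists were shortened to the length of the shortest. It fell to 66 with an adjusted p under 0.001 in the untreated and BMP4 lists and to 1052 with a log2 fold of at least 3. In settings chosen after seeing the data, 666 and 166 members remained where both first replicates reached the 5th or the 25th percentile of TNFa list levels. The median distance to a start site was 27333 bp with the adjusted p under 0.001 and 13326 bp for the 666, of which 18.8% were promoters. As a share of shared windows, members were 9.59% with partners within 20 bp. With exclusion distances of 62, 250, 1000 and 5000 bp (the last chosen after seeing the data) the share was 13.2%, 11.1%, 9.58% and 7.63%. It was 8.43% with lists of equal length, 0.843% with the adjusted p under 0.001 and 7.11% with the log2 fold of at least 3. The cause was not tested.

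For BMP4 against untreated cells, limma called 0 members at an adjusted p under 0.05 in all 12 alternatives. Over all windows it called 28 with the replicate block, 2 without BMP4 replicate 2 and 0 in the other 10. Members with an unadjusted p under 0.05 were 0 with total tags in place of TMM, with at least 30 tags in 2 libraries and with voom weights, and ran from 0 to 87 when 1 replicate was left out. The 87 (6.51% of members tested, without BMP4 replicate 2) stand beside 7.24% of all windows. The median of members ran from -0.46 to 0.60 when 1 replicate was left out, so its direction rests on single libraries. With the replicate number as a block, 82 members (4.03%) had an unadjusted p under 0.05, beside 8.82% of all windows. Without the block the share of all windows was 0.109%, far under the nominal level of 0.05. With the block the limma adjusted p was 0.0551 at Khdrbs3 and Agbl5, 0.0988 at Taf13 and 0.0996 at Dlx2. For the named windows lower with BMP4 it was 0.374 to 0.443. Like-numbered untreated and BMP4 libraries deviated together (r = 0.78 across shared windows, 0.70 across members), but 2 pairs and labels that give only numbers do not establish pairing.

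At the genes of members, total tags in place of TMM gave medians of -0.24 for TNFa against untreated cells and -0.26 for both factors against BMP4, while the medians of all windows moved to -0.15 and -0.15. Leaving out 1 replicate gave -0.18 to -0.057 and -0.19 to -0.074, beside -0.047 to 0.043 and -0.049 to 0.03 over all windows, and leaving out both second replicates gave -0.072 for both factors against BMP4. The median member had 8 to 42 tags a library, which limits the precision of its level, and a window not called with TNFa has no value there.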
